A study of Oryza sativa with 6 samples.

Results

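From a table of 39367 genes, 10 genes of the pollen wall and of the anther cuticle were followed, each found by its gene identifier. They are polyketide synthase 1 (PKS1, Os10g0484800), the cytochrome P450 hydroxylases CYP703A3 (Os08g0131100) and CYP704B2 (Os03g0168600), male sterility protein 2, also named defective pollen wall (Os03g0167600), beta ketoacyl reductase (Os12g0242700), the transporters ABCG15 (Os06g0607700) and ABCG26 (Os10g0494300), WAX-DEFICIENT ANTHER 1 (WDA1, Os10g0471100), a glucose-methanol-choline (GMC) oxidoreductase (Os04g0573100) and RAFTIN1 (Os08g0496800). RAFTIN1 is described as an anther protein and is neither an enzyme nor a transporter. The 10 genes were chosen from a view of their levels in these libraries, so their differences between genotypes are given as a description and not as a test. RNA was sequenced from rice panicles of CTB3-cr1, a line labelled as a knockdown of CTB3 and headed as a knockout in the table, and of the wild-type cultivar Nipponbare, with 3 biological replicates each. Both genotypes were held in the cold for 1 day, a regime that the series title shortens to CS-PT without spelling it out. CTB3-cr1 is a single line, so the effect of CTB3 and any other difference of that line cannot be told apart, and panicles without cold were not analysed here.

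Sporopollenin is the resistant polymer of the outer pollen wall, the exine, and its building blocks are made in the tapetum, the innermost anther layer. Fatty acids are hydroxylated by cytochrome P450 enzymes, activated by an acyl-CoA synthetase, extended to pyrones by polyketide synthases and reduced, while a fatty acyl reductase supplies fatty alcohols. ABC transporters of the G family move such lipids out of the tapetum, toward the pollen surface or toward the outer anther epidermis, where cutin and wax form the anther cuticle. In rice, loss of several of these genes leaves anthers without viable pollen.

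The libraries held 14760743 to 16982031 counts in CTB3-cr1 and 14422565 to 16367548 in Nipponbare. Nipponbare replicate 2 was the outermost library along the leading axis of a principal component analysis of log2 CPM (counts scaled to library size), at a score of 80.3 against -54.8 to 17.2 for the rest, and values without it are therefore given below. The tapetum was represented in every library: the regulator TAPETUM DEGENERATION RETARDATION (Os02g0120500) had 323, 384 and 417 CPM in CTB3-cr1 replicates 1, 2 and 3, against 530.4, 444 and 329 CPM in Nipponbare replicates 1, 2 and 3. The knockdown itself was not checked, since no source used here pairs CTB3 with a gene identifier.

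Together the 10 genes took a smaller share of the RNA in CTB3-cr1 than in Nipponbare. They held 0.188%, 0.252% and 0.174% of the counts in CTB3-cr1 replicates 1, 2 and 3, against 0.406%, 0.545% and 0.319% in Nipponbare replicates 1, 2 and 3, so the highest CTB3-cr1 share lay below the lowest Nipponbare share. The mean share was 0.204% ± 0.0418 in CTB3-cr1 and 0.423% ± 0.114 in Nipponbare (SD, n = 3 each). In whole panicles, fewer tapetal cells and less of these RNAs per cell cannot be told apart. The log2 fold change of CTB3-cr1 over Nipponbare was below 0 for 9 of the 10 genes and above 0 for ABCG26. The median was -1.04 over the 10 genes and 0.00 over the 25636 genes tested, 50.5% of which lay below 0. Without Nipponbare replicate 2 the count below 0 was again 9 and the median was -0.80.

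All 10 genes passed the filter on low counts. In 5 of them every CTB3-cr1 library lay below every Nipponbare library in CPM, against 5.36% of all genes tested (5.11% separated in the other direction); these were PKS1, CYP703A3, beta ketoacyl reductase, the GMC oxidoreductase and RAFTIN1. This count of 5 stayed the same without Nipponbare replicate 2, against 7.5% of all genes, and became 8 without CTB3-cr1 replicate 2, against 11.4%, and 9 without Nipponbare replicate 3, against 13%. The quasi-likelihood test of edgeR called 0 of the 10 at an adjusted p under 0.05, where 20 genes, or 0.078% of those tested, were called (0.0156% lower and 0.0624% higher in CTB3-cr1). An unadjusted p under 0.05 was reached by 7, all lower in CTB3-cr1, against 3.6% of all genes lower and 5.25% in either direction. In the authors' deposited results, 4 genes have an adjusted p under 0.05 as lower in CTB3-cr1, namely PKS1, beta ketoacyl reductase, the GMC oxidoreductase and RAFTIN1, against 0.409% of its genes lower and 0.212% higher, and a rerun of DESeq2 also called 4. Because the genes were chosen with this contrast known, nothing is read from these counts.

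The 10 genes covered a wide range of abundance. Ranked by mean FPKM, the authors' unit scaled to gene length and library size, PKS1 stood at place 67 of 39367 genes, CYP704B2 at 238, beta ketoacyl reductase at 281 and the GMC oxidoreductase at 504. CYP703A3, male sterility protein 2 and ABCG15 followed at 741, 765 and 783, and WDA1 stood at 1112, RAFTIN1 at 2973 and ABCG26 at 15882. The middle of this order is not resolved, because the libraries of CYP703A3, male sterility protein 2 and ABCG15 overlapped widely.

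**Figure D1:**
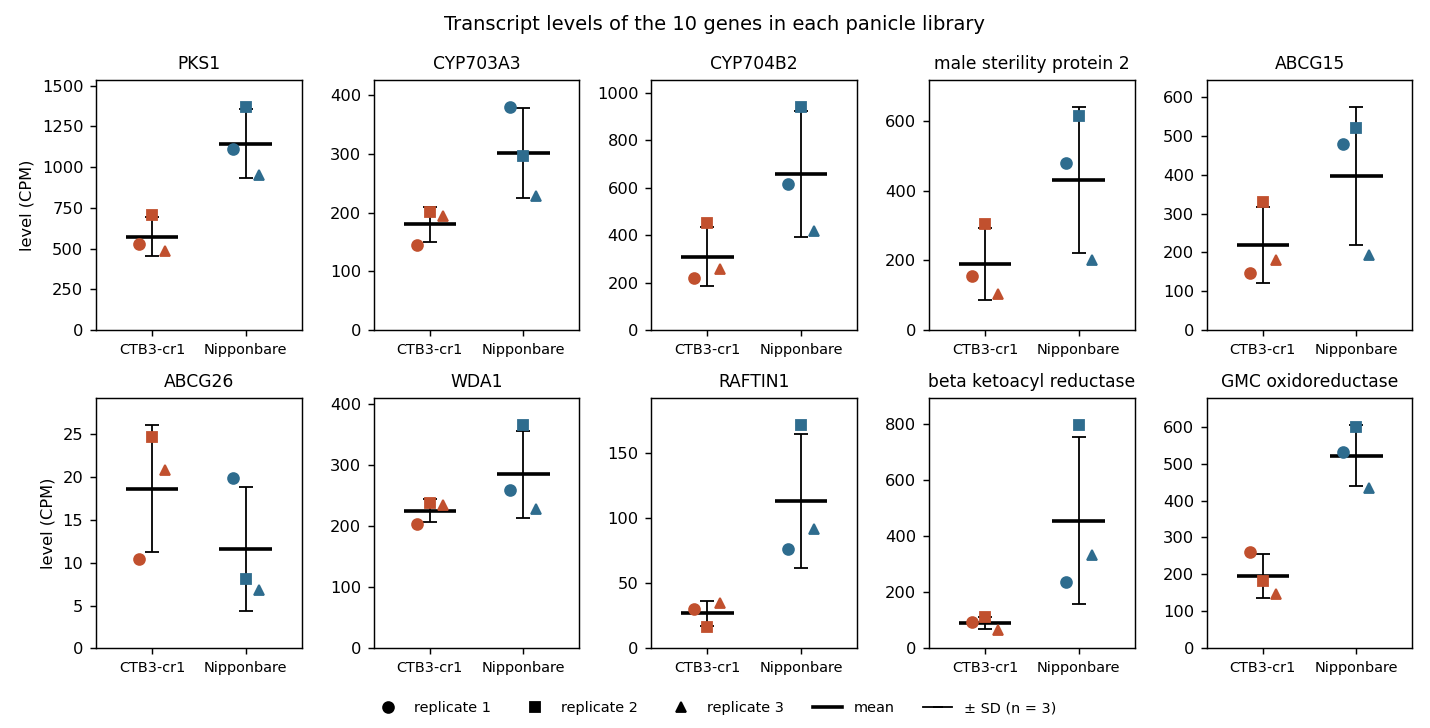
Each panel shows 1 of the 10 genes, with its level in CPM on a linear axis from 0, CTB3-cr1 on the left and Nipponbare on the right; symbols are replicates, the thick line is the mean and the bars are the SD of 3 libraries. Nipponbare replicate 2 (squares) was the highest library for 8 of the 10 genes, and the groups are fully separate for 5.

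Beta ketoacyl reductase and RAFTIN1, whose log2 fold changes lay within 1 SE of each other, had the largest fold differences of the 10 with all libraries, while male sterility protein 2, also an enzyme of fatty acyl supply, had a smaller one with overlapping libraries. Beta ketoacyl reductase, described as similar to the plastid enzyme that reduces the growing chain during fatty acid synthesis, lies on chromosome 12 from 7915608 to 7918642 on the plus strand; no source used here names the genome build of these coordinates. It had 95.3, 111 and 66.97 CPM in CTB3-cr1 replicates 1, 2 and 3, against 238, 795 and 331 CPM in Nipponbare replicates 1, 2 and 3. The groups did not overlap, and Nipponbare replicate 2 was more than double any other library. The mean was 91.1 ± 22.3 CPM in CTB3-cr1 and 455 ± 298 CPM in Nipponbare (SD, n = 3 each), a log2 fold change of -2.32 ± 0.46 (SE), or -1.64 without Nipponbare replicate 2. The spread was thus much wider in Nipponbare, at 3.34-fold between its extreme libraries, than in CTB3-cr1, at 1.66-fold.

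Male sterility protein 2, a reductase that turns fatty acyl chains into the fatty alcohols of the pollen wall, lies on chromosome 3 from 3653709 to 3657069 on the plus strand. It had 156, 305 and 105 CPM in CTB3-cr1 replicates 1, 2 and 3, against 480.5, 614 and 202 CPM in Nipponbare replicates 1, 2 and 3. The groups overlapped, because CTB3-cr1 replicate 2 was above Nipponbare replicate 3. Its log2 fold change was -1.20 ± 0.50 (SE), and it was -0.86 without Nipponbare replicate 2 and -1.73 without CTB3-cr1 replicate 2.

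The hydroxylases differed in how far the genotypes separated. CYP704B2, which hydroxylates long-chain fatty acids at their end, lies on chromosome 3 from 3702125 to 3704085 on the minus strand and had 219.6, 453 and 256 CPM in CTB3-cr1 replicates 1, 2 and 3, against 618, 943 and 416 CPM in Nipponbare replicates 1, 2 and 3. CTB3-cr1 replicate 2 again exceeded Nipponbare replicate 3, so the groups overlapped, while the remaining CTB3-cr1 libraries were the lowest. Its log2 fold change was -1.09 ± 0.37 (SE), or -0.74 without Nipponbare replicate 2. CYP703A3, which hydroxylates lauric acid within the chain, lies on chromosome 8 from 1753125 to 1755525 on the plus strand and had 145, 200.3 and 194 CPM in CTB3-cr1 replicates 1, 2 and 3, against 381, 296 and 228 CPM in Nipponbare replicates 1, 2 and 3. All CTB3-cr1 libraries were below all Nipponbare libraries, although only by a narrow gap between CTB3-cr1 replicate 2 and Nipponbare replicate 3, and here the highest library was Nipponbare replicate 1. The log2 fold change of CYP703A3 was -0.74 ± 0.22 (SE), and -0.76 without Nipponbare replicate 2.

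PKS1 was the most abundant of the 10 in mean FPKM. The table describes it as the orthologue of Arabidopsis PKSA/LAP6, a polyketide synthase that joins fatty acyl and malonyl units into sporopollenin precursors. The gene lies on chromosome 10 from 18316329 to 18318605 on the plus strand and had 359, 482 and 327 FPKM in CTB3-cr1 replicates 1, 2 and 3, against 752, 925 and 646 FPKM in Nipponbare replicates 1, 2 and 3. In CPM this was 573 ± 118 CPM in CTB3-cr1 and 1144 ± 212 CPM in Nipponbare (SD, n = 3 each), a log2 fold change of -0.997 ± 0.22 (SE). The groups were well apart, and the spread inside each was alike, at 1.46-fold in CTB3-cr1 and 1.44-fold in Nipponbare. Leaving out any 1 library kept its log2 fold change between -1.18 and -0.85.

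The transporters ABCG15 and ABCG26 had opposite signs. ABCG15, a half-size transporter of tapetal lipids needed after meiosis, lies on chromosome 6 from 24175745 to 24181930 on the plus strand and had 148, 329 and 180.1 CPM in CTB3-cr1 replicates 1, 2 and 3, against 479, 522 and 194 CPM in Nipponbare replicates 1, 2 and 3. Nipponbare replicate 3 lay among the CTB3-cr1 libraries, below replicate 2 and just above replicate 3 of that line. The log2 fold change was -0.86 ± 0.43 (SE), or -0.62 without Nipponbare replicate 2 and -1.28 without CTB3-cr1 replicate 2. ABCG26, tied to the anther cuticle in its description, lies on chromosome 10 from 18784891 to 18790563 on the plus strand and was the weakest of the 10 by far, at 111 to 398 counts in a library. It had 10.4, 24.7 and 20.9 CPM in CTB3-cr1 replicates 1, 2 and 3, against 19.9, 8.04 and 6.80 CPM in Nipponbare replicates 1, 2 and 3. The groups overlapped, with Nipponbare replicate 1 near the upper CTB3-cr1 libraries and the other Nipponbare libraries lowest of all. Its log2 fold change was 0.69 ± 0.47 (SE) and ranged from 0.43 to 1.33 as single libraries were left out.

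**Figure D2:**
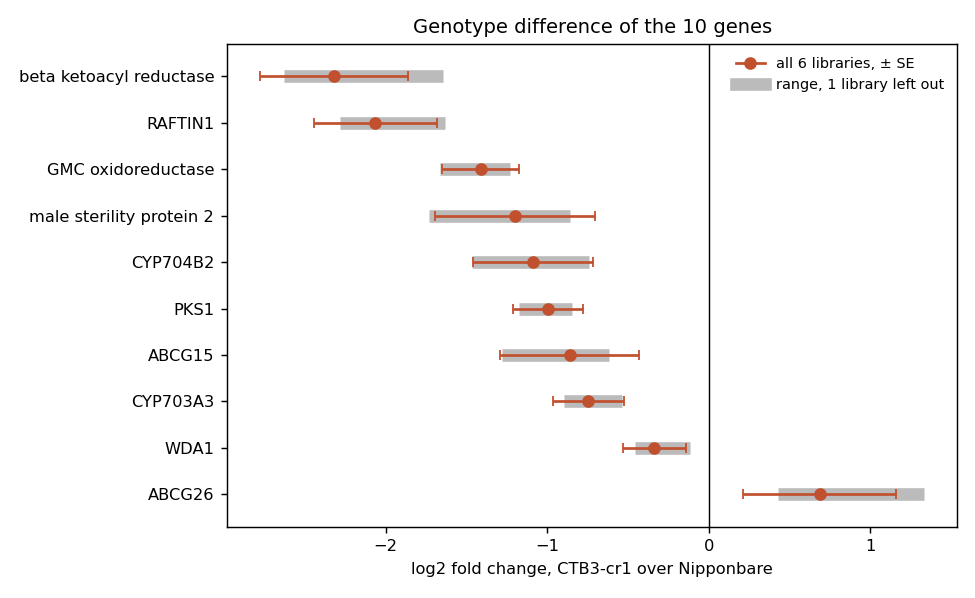
Points give the log2 fold change of CTB3-cr1 over Nipponbare from edgeR for each of the 10 genes, with the SE as thin bars and the range over fits with 1 library left out as grey bands. No band crosses 0: the 9 negative genes stayed negative and ABCG26 stayed positive in each of these fits.

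Of the cuticle genes, WDA1 differed least and the GMC oxidoreductase most evenly. WDA1, which acts in the very-long-chain fatty acids and wax of the anther epidermis, lies on chromosome 10 from 17448995 to 17454855 on the minus strand and had 204, 238 and 235 CPM in CTB3-cr1 replicates 1, 2 and 3, against 260.3, 366 and 229 CPM in Nipponbare replicates 1, 2 and 3. Apart from Nipponbare replicate 2, its libraries lay close together and the genotypes overlapped. The log2 fold change was -0.34 ± 0.19 (SE) and shrank to -0.12 without Nipponbare replicate 2. The GMC oxidoreductase, described with cutin synthesis and pollen fertility, lies on chromosome 4 from 28870310 to 28872726 on the plus strand and had 260.3, 181 and 146 CPM in CTB3-cr1 replicates 1, 2 and 3, against 530.3, 599 and 435 CPM in Nipponbare replicates 1, 2 and 3. The lowest Nipponbare library was well above the highest CTB3-cr1 library, and Nipponbare replicate 2 exceeded replicate 1 only slightly. The mean was 196 ± 58.4 CPM in CTB3-cr1 and 522 ± 82.5 CPM in Nipponbare (SD, n = 3 each), a log2 fold change of -1.41 ± 0.24 (SE), or -1.30 without Nipponbare replicate 2.

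RAFTIN1, a BURP domain protein that in wheat and rice is carried on small wall bodies from the tapetum to the developing microspores, lies on chromosome 8 from 24533261 to 24534888 on the plus strand. It had 30.1, 16.3 and 34.7 CPM in CTB3-cr1 replicates 1, 2 and 3, against 75.9, 171 and 91.5 CPM in Nipponbare replicates 1, 2 and 3. Every Nipponbare library was at least double the highest CTB3-cr1 library, and CTB3-cr1 replicate 2, the highest of its genotype for 8 of the 10 genes, was here the lowest. The log2 fold change was -2.06 ± 0.38 (SE), or -1.63 without Nipponbare replicate 2.

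The genes did not all follow 1 common profile over the libraries. Apart from ABCG26, at -0.33, each correlated at 0.70 to 0.97 in log2 CPM with the mean of the others. These values include the genotype difference, which had the opposite sign for ABCG26. With group means removed, PKS1 correlated at 0.95 with male sterility protein 2, the highest of the 45 pairs, and at -0.11 with RAFTIN1. By the same measure ABCG26 ran from -0.54 with RAFTIN1 to 0.95 with CYP703A3. That last pair stood at 0.04 before the group means were removed. Nipponbare replicate 2 was the highest library for 8 of the 10, against 22% of all genes tested; the exceptions were CYP703A3 and ABCG26. Nipponbare replicate 3 was the lowest of its genotype for 8 of the 10, but for beta ketoacyl reductase and RAFTIN1 the lowest was replicate 1. CYP704B2, male sterility protein 2 and ABCG15 had the same libraries in the same order at the top, namely Nipponbare replicate 2, Nipponbare replicate 1, CTB3-cr1 replicate 2 and Nipponbare replicate 3. This order was found in 0.979% of the genes tested. The order was taken from these genes themselves, so nothing is read from that share. WDA1, PKS1 and the GMC oxidoreductase began with the same pair of Nipponbare libraries and then differed.

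Ratios of FPKM within a library, which do not depend on its depth, held more evenly between some of the genes than between others. The ratio of CYP704B2 to ABCG15 was 2.11, 1.95 and 2.02 in CTB3-cr1, against 1.83, 2.57 and 3.04 in Nipponbare. This was a 1.66-fold range for genes that each moved 3.53-fold or more across the libraries. Of the 45 pairs among these genes it had the smallest SD of the log2 ratio, 0.278, so it is the extreme of that set. The ratio of beta ketoacyl reductase to PKS1 was 0.252, 0.220 and 0.194 in CTB3-cr1, against 0.301, 0.812 and 0.488 in Nipponbare, so all Nipponbare libraries lay above all CTB3-cr1 libraries in this balance. The ratio of ABCG15 to ABCG26 was 15.3, 14.4 and 9.31 in CTB3-cr1, against 25.9, 70.01 and 30.8 in Nipponbare, again without overlap. Both separations restate the unequal log2 fold changes of genes that were chosen with this contrast known. The share of gene pairs that separate in this way was not computed, so nothing is read from them.

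**Figure D3:**
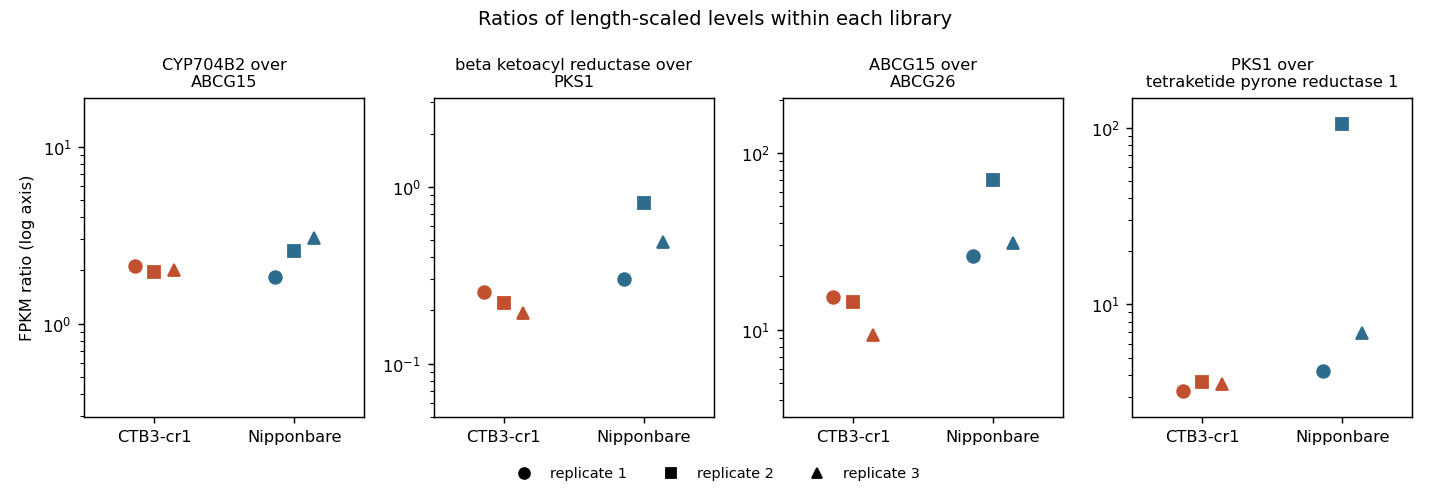
Each panel gives the ratio of the FPKM of 2 genes within each library on a log axis spanning the same fold range, CTB3-cr1 on the left and Nipponbare on the right, with symbols for replicates. The ratio of CYP704B2 to ABCG15 stayed between 1.83 and 3.04, while that of PKS1 to tetraketide pyrone reductase 1 reached 105 in Nipponbare replicate 2 against 3.22 to 6.87 in the other 5 libraries.

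Other genes of the pollen wall and cuticle, 17 found by identifier or by words in their descriptions, were split between the directions. Of these 17, all tested, 9 had log2 fold changes below 0 and 8 above 0, and the median was -0.07, or -0.13 without Nipponbare replicate 2. The edgeR test called 0 of them, while 3 had an unadjusted p under 0.05, against 5.25% of all genes, and 2 are called as lower in the authors' deposited table, against 0.409% of its genes. In 3 of the 17 every CTB3-cr1 library lay below every Nipponbare library, against 5.36% of all genes, and in 0 the reverse held, against 5.11%. The median ranged from -0.15 to 0.08 over 14 alternative fits and changed sign in 2 of them.

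The 3 genes without overlap between genotypes were also among the most abundant. ANTHER SPECIFIC PROTEIN 4 (Os08g0546300), similar to a lipid transfer protein, had 399, 271 and 210.2 CPM in CTB3-cr1, against 659, 1437 and 523 CPM in Nipponbare. HYDROXYSTEROID DEHYDROGENASE 1 (Os11g0499600), described with cuticle formation, had 154, 179 and 153 CPM in CTB3-cr1, against 249.5, 408 and 232 CPM in Nipponbare. All 3 genes, like most of the 10, were highest in Nipponbare replicate 2. ANTHER SPECIFIC PROTEIN 6 (Os11g0582500), a lipid transfer protein of the anther after meiosis, had 161, 257 and 27.7 CPM in CTB3-cr1, against 332, 1601 and 839 CPM in Nipponbare. Its log2 fold change was -2.63 ± 0.84 (SE), with an adjusted p of 0.773 in edgeR, and its level in CTB3-cr1 replicate 3 was far below that of the other libraries.

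A second set of wall genes did the opposite in Nipponbare replicate 2, and was picked out after its values were seen. Tetraketide pyrone reductase 1 (Os09g0493500), which acts after the polyketide synthases in the same pathway, had 434, 515 and 359 CPM in CTB3-cr1, against 697, 34.4 and 365 CPM in Nipponbare. The strictosidine synthase-like gene Os03g0263600, described with pollen wall formation, had 171, 300.5 and 174 CPM in CTB3-cr1, against 341, 29.4 and 164 CPM in Nipponbare. In both genes Nipponbare replicate 2 was the lowest library by a wide margin, and the other libraries overlapped between genotypes. NO POLLEN 1 (Os10g0524500), a GMC oxidoreductase of tapetum degeneration and exine formation, had 41.5, 52.9 and 18.8 CPM in CTB3-cr1, against 54.3, 1.81 and 27.9 CPM in Nipponbare. ABCG3 (Os01g0836600), a half-size transporter of pollen wall formation, had 7.40, 70.2 and 121 CPM in CTB3-cr1, against 101, 7.60 and 11.7 CPM in Nipponbare, and was low in CTB3-cr1 replicate 1 and Nipponbare replicate 3 as well. A 5-fold or wider gap among the Nipponbare libraries was present in 3.43% of all genes tested.

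The balance between PKS1 and other enzymes of its pathway was compared within libraries, the partner genes being chosen after their values were seen. The FPKM ratio of PKS1 to tetraketide pyrone reductase 1, whose gene length in the table is 3836 bases, was 3.22, 3.62 and 3.55 in CTB3-cr1, against 4.19, 105 and 6.87 in Nipponbare. That length is long for a reductase of this kind and its correctness was not checked; it sets the size of the ratio but not its order over libraries. In CPM, without length, the ratio was 1.22, 1.37 and 1.35 in CTB3-cr1, against 1.59, 39.9 and 2.61 in Nipponbare. Without Nipponbare replicate 2, the Nipponbare ratios still lay above those of CTB3-cr1. PKS1 alone separated the genotypes in this direction and was chosen with the contrast known, so nothing is read from this separation. POLYKETIDE SYNTHASE 10 (Os07g0411300), the other polyketide synthase of the exine, stood below PKS1 everywhere, at a PKS1 ratio of 6.21, 5.95 and 3.76 in CTB3-cr1, against 6.62, 20.3 and 8.02 in Nipponbare. The acyl-CoA synthetase of the pathway (Os04g0310800) followed PKS1 more closely, at a PKS1 ratio of 10.3, 8.71 and 10.2 in CTB3-cr1, against 11.4, 12.8 and 20.95 in Nipponbare.

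**Figure D4:**
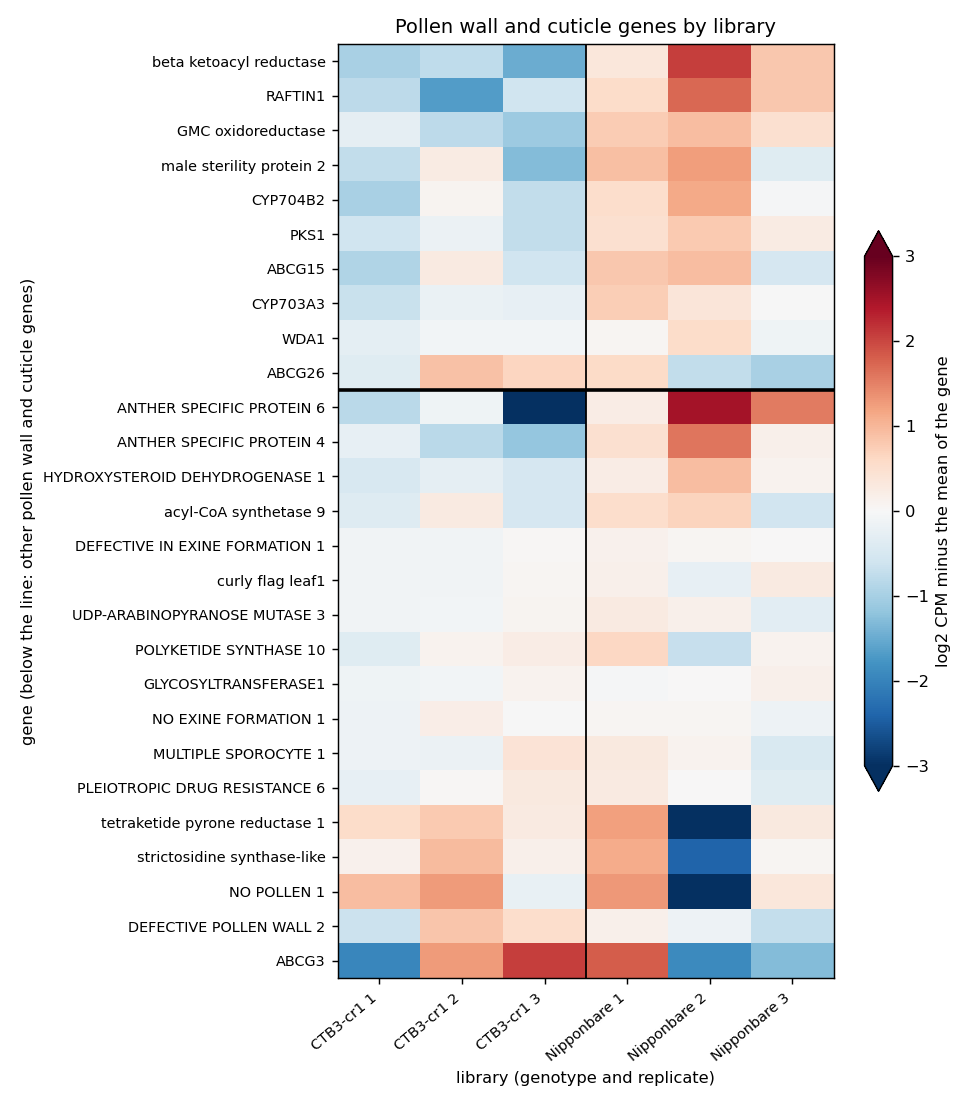
Rows are the 10 genes (above the line) and the 17 other pollen wall and cuticle genes (below), columns are the libraries with CTB3-cr1 on the left, and colour gives log2 CPM minus the mean of the gene, limited to 3 on either side. Nipponbare replicate 2 is high for 8 of the 10 genes and lowest for tetraketide pyrone reductase 1, the strictosidine synthase-like gene and NO POLLEN 1. It is also lowest, by a smaller margin, for POLYKETIDE SYNTHASE 10 and curly flag leaf1.

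Regulators of the tapetum were divided. Of 8 listed regulators, all tested, 4 were below 0 and 4 above 0, and the median log2 fold change was -0.02, with a range of -0.15 to 0.09 over 14 alternative fits and the other sign in 3. The edgeR test called 0 of them, against 0.078% of all genes tested. An unadjusted p under 0.05 was reached by 1, against 5.25% of all genes, and 1 is lower in the authors' deposited table, against 0.409% of its genes. That was ETERNAL TAPETUM 1 (Os04g0599300), a basic helix-loop-helix factor of tapetal cell death, with 36.7, 41.7 and 35.4 CPM in CTB3-cr1, against 77.7, 177 and 71.3 CPM in Nipponbare. Its groups did not overlap and its highest library was Nipponbare replicate 2, as for RAFTIN1 and beta ketoacyl reductase. TAPETUM DEGENERATION RETARDATION, in contrast, had a log2 fold change of -0.21 ± 0.20 (SE) and its libraries overlapped between genotypes.

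Markers of other tissues were measured beside these genes. The 67 green tissue genes, of which 12 had no count, summed to 4495 to 5339 CPM in CTB3-cr1 and to 4518, 8182 and 4696 CPM in Nipponbare replicates 1, 2 and 3. The 32 late pollen genes, 10 of them without a count, summed to 1052 to 1248 CPM in CTB3-cr1 and to 936 to 1279 CPM in Nipponbare. Most of this sum was a single gene, ABSCISIC ACID-STRESS-RIPENING-INDUCIBLE 5 PROTEIN (Os11g0167800), matched through the description of a protein it resembles. It had 838, 635 and 650 CPM in CTB3-cr1, against 520, 579 and 922 CPM in Nipponbare. The 41 meiocyte genes, found by words that also matched synapse proteins and ANTHER SPECIFIC PROTEIN 6, summed to 1915 to 2241 CPM in CTB3-cr1 and to 2209 to 3600.5 CPM in Nipponbare. Without ANTHER SPECIFIC PROTEIN 6, left out after its values were seen, the sums were 1771 to 1984 CPM in CTB3-cr1 and 1721 to 1999.9 CPM in Nipponbare. Green tissue thus moved with Nipponbare replicate 2 while the late pollen and meiocyte sums overlapped between genotypes; the part of these tissues in the levels of the 10 genes was not tested.

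Of the 20 nearest neighbours of the 10 genes, 15 were tested, and in 3 of these every CTB3-cr1 library lay below every Nipponbare library, against 5.36% of all genes. The same 3 had an unadjusted p under 0.05, against 5.25% of all genes, and 0 separated in the other direction, against 5.11%. Male sterility protein 2 and CYP704B2 lie 45.1 kb apart on chromosome 3, with 11 annotated genes between them, of which 8 were tested, 0 had an unadjusted p under 0.05, and the median log2 fold change was -0.08. On chromosome 10, WDA1 lies 861.5 kb from PKS1, and PKS1 lies 466.3 kb from ABCG26. Each nearest neighbour of PKS1 was even across libraries: Os10g0484900, 247 bases away, had 19.1, 13.4 and 16.9 CPM in CTB3-cr1, against 14.9, 14.3 and 19.4 CPM in Nipponbare. Protein phosphatase 44 (Os03g0167700), 57 bases beyond male sterility protein 2, had 17.8, 13.9 and 14.6 CPM in CTB3-cr1, against 16.7, 15.4 and 19.7 CPM in Nipponbare. Its libraries overlapped between genotypes. The 3 neighbours without overlap were SET protein 14, Os12g0242800 and CYANASE, and all were highest in Nipponbare replicate 2. SET protein 14 (Os03g0168700), 1081 bases from CYP704B2, had 68, 78 and 86 counts in CTB3-cr1 libraries, against 110, 291 and 159 counts in those of Nipponbare; unlike CYP704B2 it was level over the CTB3-cr1 libraries. Os12g0242800, 932 bases from beta ketoacyl reductase, had 2.86, 5.09 and 2.34 CPM in CTB3-cr1, against 5.92, 15.7 and 6.80 CPM in Nipponbare. CYANASE (Os10g0471300), similar to cyanate lyase and 16775 bases from WDA1, had 19.8, 18.5 and 17.8 CPM in CTB3-cr1, against 22.4, 24.2 and 23.8 CPM in Nipponbare. The log2 fold change of CYANASE was -0.32 ± 0.12 (SE). No source used here says whether reads were counted by strand, so reads that run past a gene's end could add to a close neighbour.

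One gene near RAFTIN1 passed the edgeR test, and it went the other way. Os08g0496700, with a Myb/SANT-like domain and named after its values were seen, lies 4130 bases away and had 11.2, 13.96 and 12.3 CPM in CTB3-cr1, against 0.127, 0.796 and 0.177 CPM in Nipponbare. Its log2 fold change was 5.12 ± 0.53 (SE) with an adjusted p of 0.0397 in edgeR. Its adjusted p in edgeR was 0.0808 to 0.218 when CTB3-cr1 replicate 1, 2 or 3 or Nipponbare replicate 1 or 3 was left out, and 0.00658 without Nipponbare replicate 2, with log2 fold changes of 4.72 to 6.28 over these fits. The 3 CTB3-cr1 libraries were all far above the highest Nipponbare library. It was the only gene called by edgeR within 50 kb of any of the 10, and the gene between it and RAFTIN1, Os08g0496750, had 0 counts in all libraries.

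The genes whose profile over the 6 libraries was most like the mean of the 10 came from several families. Likeness was Pearson's correlation of log2 CPM with the mean of the standardised values, over 6 libraries of which 3 share each genotype, and is given as a description. TREHALOSE-6-PHOSPHATE SYNTHASE 4 (Os03g0224300) ranked first at 0.99, with 163, 188 and 157 CPM in CTB3-cr1, against 234, 262 and 197 CPM in Nipponbare. A COBRA-like protein (Os03g0754500), an aldose 1-epimerase domain protein (Os02g0575800), a deaminase domain protein (Os01g0712700) and a lateral organ boundaries domain protein (Os01g0772100) followed, each at 0.99. The lateral organ boundaries gene had the widest range of the 10 most alike, with 32.8, 62.04 and 31.2 CPM in CTB3-cr1, against 121, 241 and 74.04 CPM in Nipponbare. Also among them were a UDP-glycosyltransferase-like gene (Os12g0561900), SERINE CARBOXYPEPTIDASE 61 (Os11g0461000), glycosyltransferase 6 (Os11g0546500) and a protein kinase domain gene (Os08g0376600), all at 0.98. The adjusted p of the genes named was, in edgeR, 0.458 to 0.927. Set against the mean of the other 9, CYP704B2 was the member most alike at 0.97 and ABCG26 the only one with a negative value, at -0.33. These values too include the genotype difference.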

How the data were processed

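Panicle RNA of 3 CTB3-cr1 and 3 Nipponbare samples was sequenced from libraries made with a NEBNext Ultra kit on an Illumina NovaSeq instrument, per the labels' protocols. The tools named are fastp 0.19.7, HISAT2 and DESeq2, per the submitters' processing notes. No source used here names the read counter, its strand setting, the genome build or the annotation, and values of genes with near-identical copies are uncertain. Per the file headers, the deposited table holds each library's raw count and FPKM for every gene. It also holds the authors' normalised group signal, log2 fold change and p-value, per the file headers.

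Of 39369 lines, 2 belong to a broken entry and were left out. Counts were fitted with edgeR 4.0.16 in R 4.3.3 (filterByExpr, TMM factors, quasi-likelihood F test, genotype alone), and adjusted by Benjamini-Hochberg over the 25636 genes tested, calling those under 0.05. The SE is approximate: the size of the log2 fold change over the root of its F. CPM uses TMM-scaled library sizes. Alternatives were DESeq2 1.42.0, RLE factors, library size alone, no filter, a replicate block, each library left out, and limma 3.58.1 on log2(FPKM + 1) or log2(FPKM + 0.1), with FPKM above 1 in 3 libraries or no filter. Separation of the groups with a library left out, the search for called genes within 50 kb and the meiocyte sum without ANTHER SPECIFIC PROTEIN 6 were added after seeing the data. No 2 libraries agreed within sampling noise (smallest chi-square per degree of freedom 13.9).

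The 10 genes and the 11 lists were chosen with earlier results of these data known. Named beside them were the nearest annotated gene on each side, the 10 named genes of at least 5 CPM most alike in profile (1 of them is not reported here), and up to 4 of the most abundant genes of a list; others are said to have been chosen after their values were seen. The p-values set the difference between genotypes against the spread between the 3 replicates of each, which is estimated with information shared across genes.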

Additional observations from a re-analysis of the deposited data

How the results depend on the processing

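All 10 log2 fold changes kept their sign in all 14 alternative fits. Their calls changed only with DESeq2, which called 4 of the 10 (PKS1, beta ketoacyl reductase, the GMC oxidoreductase and RAFTIN1) where edgeR called 0, and 202 genes in all (133 lower and 69 higher in CTB3-cr1) where edgeR called 20 (4 lower and 16 higher). Leaving out single libraries gave 4 to 16 called genes in all: 7 when Nipponbare replicate 2 was omitted, and 4 to 6 when any CTB3-cr1 library or Nipponbare replicate 1 was. The count of genes with every CTB3-cr1 library below every Nipponbare library was 5 with all libraries and 5 to 9 with 1 left out, a comparison added after seeing the data: it was 8 without CTB3-cr1 replicate 2, against 11.4% of all genes, and 9 without Nipponbare replicate 3, against 13% of all genes. The cause of these changes was not tested.

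The replicate numbers are not stated to pair the samples. Same-numbered CTB3-cr1 and Nipponbare libraries had correlations of their deviations from the group means of -0.274, 0.367 and -0.0708 for replicates 1, 2 and 3. The highest value between the genotypes was 0.47, for CTB3-cr1 replicate 1 and Nipponbare replicate 3. These mixed values do not settle whether the numbers pair the samples. With the replicate block edgeR called 4 genes in all and 0 of the 10, and Os08g0496700 near RAFTIN1 had an adjusted p of 0.0984. Depth limits ABCG26 most, which had 111 to 398 counts in a library.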

Other observations

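Relatives of the 10 genes, grouped by words in their deposited names, were described by their fitted log2 fold changes. The edgeR test called 0 genes of any of these lists, against 0.078% of all genes tested. An unadjusted p under 0.05 was reached by 2 of 7 BURP domain, 3 of 34 ABCG, 4 of 27 wax and 2 of 4 chalcone synthase-like genes. It was reached by 0 of 4 CYP86 group and 0 of 2 GMC genes, against 5.25% of all genes tested. The authors' deposited table calls 1 BURP domain gene and 1 ABCG transporter, both lower, against 0.409% of its genes. Among 7 tested BURP domain genes, the family of RAFTIN1, 6 were below 0 and the median was -0.62. Over 14 alternative fits, each with the list genes that it kept, the median ranged from -0.91 to -0.03 without changing sign. One of the 7 had a pattern close to that of RAFTIN1: Os09g0481000, similar to BURP domain-containing protein 15, had 49.8, 27.3 and 41.1 CPM in CTB3-cr1, against 109.8, 295 and 172 CPM in Nipponbare. Its log2 fold change was -2.29 ± 0.39 (SE), at an adjusted p of 0.246 in edgeR. BURP domain-containing protein 3 (Os01g0733500), the most abundant of the family by FPKM, had 510.1, 983 and 763 CPM in CTB3-cr1, against 1026, 848 and 414 CPM in Nipponbare, so its libraries overlapped between genotypes.

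Of 34 tested ABCG transporters other than ABCG15 and ABCG26, 24 were below 0, with a median of -0.16, and PLEIOTROPIC DRUG RESISTANCE 6 (Os01g0177900), a transporter of cuticle formation, had 0.06 ± 0.21 (SE). Of 27 tested wax and very-long-chain fatty acid genes, 14 were below 0, with a median of -0.0049; beta-ketoacyl-CoA reductase 1 (Os04g0483500), an enzyme of fatty acid elongation, had -0.72 ± 0.24 (SE). The wax median changed sign in 3 of the 14 alternative fits (-0.21 to 0.08), and the ABCG median in 0 (-0.20 to -0.07). The 4 tested chalcone synthase-like genes had a median of -0.85, with a range of -1.80 to -0.03. Among them was Os05g0574600, named chalcone synthase but also FATTY ACID ELONGATION1, and described as similar to a 3-ketoacyl-CoA synthase. It had -1.61 ± 0.48 (SE), and its description matched the words of the wax list as well. The median was 0.12 for the 4 tested fatty acid hydroxylases of the CYP86 group and 0.09 for the 2 tested GMC oxidoreductases. Each changed sign in 5 of the 14 fits, with ranges of -0.46 to 0.44 and -0.61 to 0.52. Every fit took the median over the list genes that it kept, and DESeq2 and the fits without a filter took in genes of few counts. The ranges and sign changes of the lists thus mix changes in the values with changes in the genes. Of the marker lists, green tissue had a median of -0.22 over 50 tested genes and 0.04 without Nipponbare replicate 2. Late pollen had 0.07 over 13 and meiocytes 0.14 over 41. The edgeR test called 0 of these. An unadjusted p under 0.05 was reached by 2 green tissue, 1 late pollen and 2 meiocyte genes, against 5.25% of all genes tested.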
